A study of Mus musculus with 6 samples.

Results

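The 82 genes described here carry the symbols of heat shock proteins, of their DnaJ (Hsp40) co-chaperones and of the subunits of the chaperonin CCT (Tcp1 and the Cct genes), and they were picked by symbol alone from the 24411 genes of the deposited tables. Their mRNA was measured by bulk RNA-seq in lineage-negative bone marrow cells of C57BL/6 mice, in 3 control libraries (CD45.2+ Brd9fl/fl, floxed alleles and no Cre) and 3 Brd9 KO libraries (Mx1-Cre Brd9fl/fl). Brd9 encodes a bromodomain subunit of the non-canonical BAF chromatin remodelling complex. All mice, controls included, received 3 doses of 20 mg/kg pIpC, a double-stranded RNA mimic that raises interferon and so switches on Mx1-Cre, and the cells were taken 8 weeks later. The series design gives primary mice first injected 4 weeks after birth, whereas the labels' treatment text speaks of transplant recipients. The study's text gives the RNA-seq mice as 4 months old at 8 weeks after pIpC. This age does not match a first injection 4 weeks after birth. The labels give the population as lineage-negative, whereas the study's methods describe sorting of Lin-c-Kit+ cells. Mx1-Cre is active in every interferon-responsive cell, and the controls carry no Cre, so that loss of Brd9 and presence of Cre cannot be told apart. Nothing in the labels says that the 3 libraries of a group came from separate animals, which the study describes as a biological triplicate, so the p-values measure the spread between these libraries.

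Chaperones bind unfolded or partly folded proteins and let them reach their native state. Hsp70 proteins grip short exposed stretches in a cycle driven by ATP, DnaJ proteins deliver the client and stimulate that cycle, and Hsp90 acts on clients that are nearly folded, such as kinases and steroid receptors. CCT is a double ring built from 8 different subunits that encloses actin, tubulin and other proteins, and Hspd1 with its lid Hspe1 forms the corresponding chamber of mitochondria. A part of the family is induced through heat shock factor 1 when proteins misfold, another part is made at all times, and dividing cells with a high rate of protein synthesis, such as marrow progenitors, hold much of the second kind.

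Promoter elements known for the response to unfolded proteins are printed first, for members of the stress-induced, CCT, mitochondrial and ER classes described further on. The classes themselves follow textbook knowledge and not these elements. Heat shock factor 1 binds repeats of GAA in alternating orientation. RefSeq promoters (build GRCm38.p6, 250 bases before to 50 bases after the start site) were given for 68 of the 82 members and were searched on both strands for a 2-unit element (GAANNTTC or TTCNNGAA), for a 3-unit element (GAANNTTCNNGAA or its reverse complement TTCNNGAANNTTC), which contains the 2-unit one, and for the ER stress response element (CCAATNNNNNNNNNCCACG). In the windows that follow, each upstream of the RefSeq start site and written 5′ to 3′ on the strand of the gene, capitals mark the matched element. The windows of Hsph1, Hspe1, Hspa5 and Cct5 touch an exon of the GENCODE annotation and are kept to 30 bases.
Hspa1a, chr17:34972228-34972285, minus strand: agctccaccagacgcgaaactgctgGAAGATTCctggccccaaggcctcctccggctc
Hspa1b, chr17:34959310-34959367, minus strand: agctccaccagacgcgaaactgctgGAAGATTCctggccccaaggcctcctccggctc
Hsph1, chr5:149636351-149636380, minus strand: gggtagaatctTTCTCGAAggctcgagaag
Hspe1, chr1:55088053-55088082, plus strand: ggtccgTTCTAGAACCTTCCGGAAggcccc
Cct5, chr15:31601862-31601891, minus strand: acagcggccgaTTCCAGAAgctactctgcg
Hspa5, chr2:34772020-34772049, plus strand: cttcaCCAATCGGAGGCCTCCACGacgggg
Hsp90b1, chr10:86705527-86705556, minus strand: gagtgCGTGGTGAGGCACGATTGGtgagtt
Dnajc3, chr14:118937802-118937870, plus strand: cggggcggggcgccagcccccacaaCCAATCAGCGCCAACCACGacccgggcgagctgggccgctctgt

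The windows of Hspa1a and Hspa1b are the same base for base, from 104 to 97 bases before the start site at the element itself, and the 300 bases searched were 98.7% identical between the pair. Hspe1 holds 3 overlapping 2-unit matches between 89 and 72 bases before its start, and since Hspd1 starts close by on the other strand the same bases lie in the promoter of both genes, whose annotated bodies share 112 bases. The element of Hsp90b1 reads in the reverse orientation. Over all 27025 gene symbols with a promoter, 16.97% held the 2-unit element, 0.66% the 3-unit element and 0.14% the ER stress element. Among the members, 18 of 68 (26.5%) held the 2-unit element, and they included 6 of the 7 stress-induced members with a promoter (Dnaja1, Dnajb4, Hspa1a, Hspa1b, Hspb1 and Hsph1, not Dnajb1), 3 of 8 CCT, 3 of 6 small Hsp and 2 of 5 mitochondrial members. The 3-unit element was found in Dnajb6, Hspd1, Hspe1 and Hsph1 (in Hsph1 after the start site, outside its window), and the ER stress element in Dnajc3, Hsp90b1 and Hspa5. A match describes the letters of the window and is not evidence of binding.

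The libraries held 21151031 to 28500168 expected counts, and 15165 to 15497 genes had a count in each. Brd9, the targeted gene, stood at 45.9, 49.1 and 52.1 CPM (the count relative to library size, scaled by TMM) in the controls and at 15.6, 13.5 and 21.03 CPM in the KO libraries, a log2 fold change of −1.56 ± 0.17 (SE, n = 3 against 3, edgeR's quasi-likelihood test, adjusted p = 0.0034). The groups did not overlap, and the exact two-sided permutation test gave p = 0.1, the smallest that 3 against 3 allows. Other cell markers differed between the groups. Of 11 tested stromal markers 9 were called higher in KO (9.19% of all genes), with a summed level of 36.9 to 56.1 CPM in the controls and 113 to 179 CPM in KO. Of 8 endothelial markers 5 were called higher, at 148 to 182 CPM against 200 to 236 CPM. Lepr, Col3a1, Pdgfra, Kitl, Dcn, Cdh5 and Cldn5 met the count filter of the test only through the KO libraries, in which they are high. Their calls are given as a description. Erythroid markers were called lower for 4 of 8 (6.25% of all genes), at 1925 to 2373 CPM against 1093 to 1876 CPM. Neutrophil granule markers summed to 1704 to 3180 CPM in the controls, to 1182 and 1336 CPM in KO 1 and KO 2 and to 7780 CPM in KO 3, which thus stood apart in the sum. S100a8 and S100a9 alone stood at 2036 and 3293 CPM in KO 3. Of the 9 tested 1 was called, Camp, and it was lower (6.25% of all genes). Camp stood at 244, 107 and 167 CPM in the controls and at 3.97, 2.76 and 38.0 CPM in KO (−3.55 ± 0.93, edgeR's quasi-likelihood test, adjusted p = 0.057). Of 8 progenitor markers 2 were called higher, Gata2 and Ptprc (9.19% of all genes), and 1 lower, Mpo (6.25% of all genes). On average Gata2 stood at 208 CPM in the controls and 502 CPM in KO, and Mpo at 10316 and 5248 CPM. Of 8 lymphoid markers 1, Ncr1, was called higher (9.19% of all genes) and none lower. No defining marker of these lists was at 0 in all libraries, and their part in the results that follow was not tested. In bulk RNA a smaller share of cells that express a gene and less RNA per cell cannot be told apart.

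Over all genes, 12953 had enough counts for the test, about 0.405 CPM or more in at least 3 libraries, and 15.4% of them were called at an adjusted p under 0.1, 9.19% higher and 6.25% lower in KO. Of the 82 members 69 were tested. Of these, 11 were called lower (15.9%) and 2 were called higher (2.9%), so that the share called lower lay above the 6.25% of all genes and the share called higher below the 9.19%. The point estimate was below 0 for 48 of 69 members (69.6%, against 48.2% of all genes), and the median log2 fold change was −0.18, against 0.02 over all genes. In 30 members every KO library lay below every control library in CPM, and in 4 every KO library lay above (16.3% and 17.2% of all genes did so). This depended on the scale. In TPM 5 members were wholly lower, 5 were wholly higher and 59 overlapped, and the share of all genes was not computed on that scale. Leaving out single libraries moved the count called lower from 11 to 1 without control 1 (1.4% of members against 2.5% of all genes), 1 without KO 1 (1.4% against 1.4%) and 1 without KO 2 (1.4% against 1.7%), so that in these 3 fits the members' share was near or below that of all genes. It was 2 without control 2 (2.9% against 1.9%), 5 without control 3 (7.2% against 2.6%) and 14 without KO 3 (20.3% against 15.3%). The filter was met by 68 of the 69 in each group alone, and Hspg2 met it only through the KO libraries. The 13 members not tested stayed at or under 0.454 CPM in every library. Of these Dnajb8, Dnajc22, Hspa1l, Hspb3 and Hspb7 had no count at all, and the others were Cct6b, Dnajb13, Dnajb7, Hspa12a, Hspb1, Hspb2, Hspb8 and Hspb9.

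**Figure D1:**
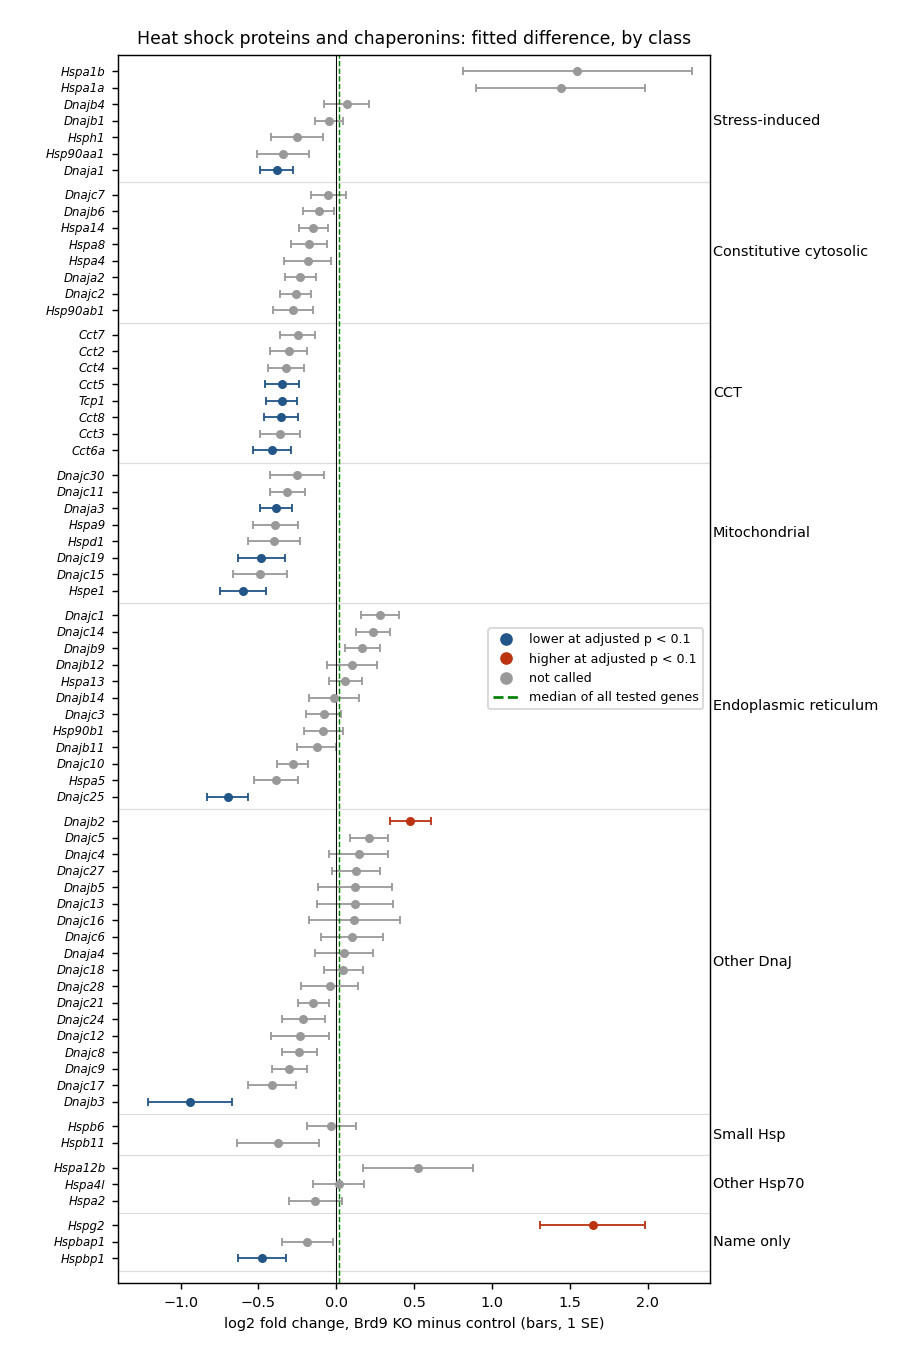
Fitted log2 fold change (Brd9 KO minus control, x axis) with 1 SE for the 69 tested members, grouped by class. Blue points were called lower, red points higher and grey points not called at an adjusted p under 0.1, and the dashed line is the median of all tested genes (0.02). All 8 CCT and all 8 mitochondrial points lie below 0, whereas Hspa1a and Hspa1b lie far above 0 with wide bars.

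The members were abundant as a family. By mean TPM, which is a level per length of transcript, the median tested member stood at percentile 70.9 of the tested genes, and 22 of the 69 were among the top 10%. All members together made up 0.833% to 1.26% of the TPM of a library. Hspa8, the constitutive cytosolic Hsp70, ranked 104 among all genes, Hsp90ab1, the constitutive Hsp90, ranked 106, and Hsp90aa1, its stress-inducible paralogue, ranked 214.

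The 8 abundant CCT subunits were all lower in Brd9 KO by point estimate (48.2% of all genes), and 4 of them were called lower (6.25% of all genes). In 7 every KO library lay below every control library (16.3% of all genes). Cct6a stood at 459, 451 and 367 CPM in the controls and at 341, 293 and 325 CPM in KO. The 3 KO values lay below the lowest control, and the log2 fold change was −0.41 ± 0.12 (adjusted p = 0.084). Tcp1, the subunit after which the complex is often named, stood at 588, 604 and 547 CPM against 477, 448 and 438 CPM, a change of −0.35 ± 0.10 (adjusted p = 0.073), again without overlap. Cct8 was at 549, 578 and 486 CPM against 444, 400 and 416 CPM (−0.36 ± 0.11, adjusted p = 0.091). Cct5, whose promoter window is printed above, was at 622, 626 and 538 CPM against 492, 442 and 469 CPM (−0.35 ± 0.11, adjusted p = 0.094). KO levels of these 4 subunits were 75.1% to 78.6% of control.

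The other 4 subunits did not pass the threshold. Cct3 was at 408, 441 and 350 CPM in the controls and at 342, 308 and 284 CPM in KO, with adjusted p = 0.117. Cct4 (426, 392 and 346 against 334, 307 and 290 CPM, adjusted p = 0.126) and Cct2 (583, 575 and 495 against 483, 447 and 406 CPM, adjusted p = 0.144) likewise had no KO library above a control library. Cct7 was the one tested subunit whose groups overlapped, at 473, 473 and 405 CPM against 407, 353 and 379 CPM (−0.25 ± 0.11, adjusted p = 0.202). The ninth gene, Cct6b, an isoform known from testis, had at most 0.303 CPM in a library and was not tested. Over the 8 tested subunits the median log2 fold change was −0.35, with a range of −0.41 to −0.25, against a median of 0.02 over all genes.

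**Figure D2:**
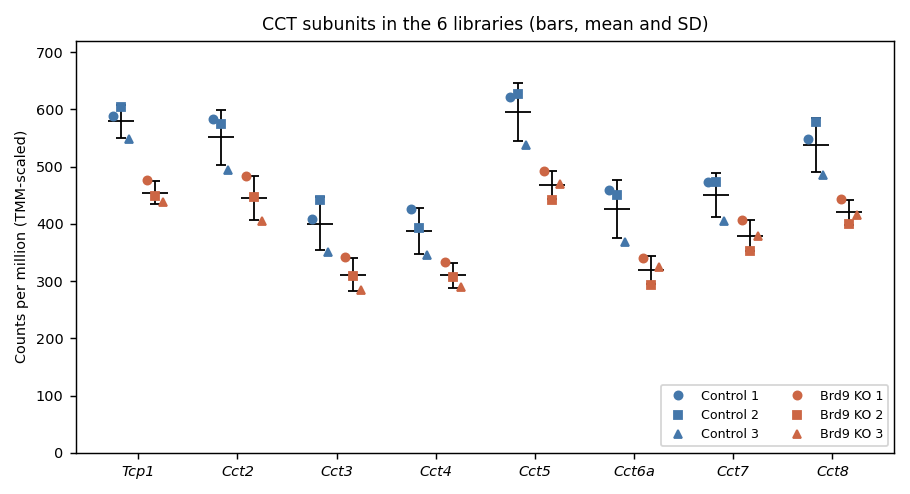
TMM-scaled CPM (y axis) of the 8 tested CCT subunits in each library, with blue symbols for controls 1 to 3, orange symbols for Brd9 KO 1 to 3, and bars for mean and SD. For every subunit but Cct7 the 3 KO symbols lie below the 3 control symbols.

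The size of the CCT difference depended on the scale. Summed CPM of the complex was 4107, 4141 and 3535 in the controls and 3320, 2999 and 3007 in KO, whereas summed TPM was 2301, 2897 and 2337 against 2557, 2524 and 1881, and on the TPM scale the groups overlapped for all 8 subunits. With limma on log2(TPM + 1) the 8 differences ran from −0.19 to −0.03 and none was called, while the median of all genes rose by 0.17 on that scale. Set against that median the CCT difference was −0.31, close to the −0.37 of the count fit. Scaling by library total alone, which moved the median of all genes by 0.09, left 0 CCT subunits called and 4 members called lower, against 3.78% of all genes. Leaving out single libraries left 0 to 4 CCT subunits called. It was 0 without control 1, control 2, KO 1 or KO 2, where 2.5%, 1.9%, 1.4% and 1.7% of all genes were called lower. It was 1 without control 3 (2.6% of all genes) and 4 without KO 3 (15.3% of all genes). The 8 point estimates stayed below 0 in each of these fits. Without KO 3, the library with the highest sum of neutrophil markers, 14 members were called lower and 6 higher (15.3% and 16.3% of all genes).

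The subunits stood in nearly the same proportion in every library. Cct5 had the highest TPM of the complex in all 6 libraries, and the ratio of the highest to the lowest subunit was 1.82 to 1.90 in every library. The lowest was Cct7 in the 3 controls, Cct6a in KO 1 and KO 2, and Cct3 in KO 3. Annotated neighbours overlap several of these genes on the other strand (Psph with Cct6a, Usp16 with Cct8, Mrpl18 and Acat3 with Tcp1, Pradc1 with Cct7). A stranded kit is given in the methods but an unstranded one in the labels, so reads of such neighbours may not have been separated.

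Transcript length moved with the differences over the whole table. Genes of up to 800 bases had a median log2 fold change of −0.30 (n = 614) and genes over 5000 bases a median of 0.24 (n = 2034), and the medians of the ranges between rose in order of length. Against the mean control level the shortest genes stood at −0.36 in KO 1, −0.57 in KO 2 and 0.03 in KO 3, and at 0.27 in control 1, so the pattern divided libraries within a group as well. Among the CCT subunits 4 lie in the range over 1200 to 2000 bases, where the median was −0.13, and 4 in the range over 2000 to 3000 bases, where it was −0.02. The 8 subunits lay below the median of their own length range by 0.18 to 0.39. With offsets that remove the dependence on length in each library, a choice made after seeing the data, 28 members were called lower and 2 higher (16.1% of all genes lower), and they included 7 CCT subunits. Over all members the median distance from the median of the same length range was −0.13, with 50 of 69 below it.

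**Figure D3:**
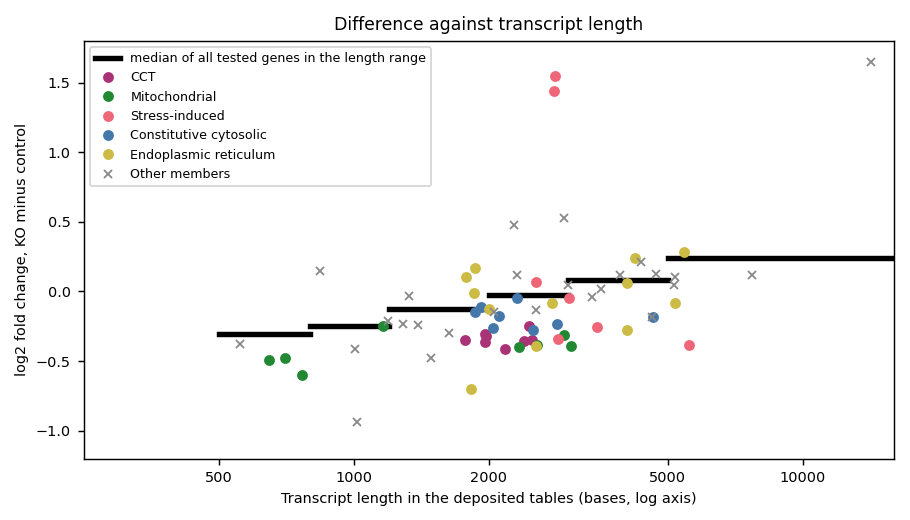
Log2 fold change (KO minus control, y axis) of each tested member against its transcript length in bases (log x axis), coloured by class, with black bars for the median of all tested genes in each length range. The bars climb from −0.30 to 0.24, and the CCT points lie below the bars of their ranges.

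Mitochondrial chaperones had point estimates below 0 in 8 of 8 members (48.2% of all genes), with a median of −0.40. Of the 8, 3 were called lower (6.25% of all genes), and in 7 every KO library lay below every control library in CPM (16.3% of all genes). In TPM this held for 3 members. Hspe1, the lid of the mitochondrial chaperonin (chr1, 55088132 to 55091307, plus strand), stood at 263, 225 and 199 CPM in the controls and at 152, 128 and 173 CPM in KO. This was 66.0% of control, a log2 fold change of −0.60 ± 0.15 (adjusted p = 0.050), and the groups also stayed apart in TPM. Its transcript has 768 bases, in the length range where all genes had a median of −0.30. Hspd1, the barrel of the same chaperonin and head to head with Hspe1, was at 640, 834 and 609 CPM against 581, 560 and 436 CPM. The KO libraries lay below the controls, but control 2 stood far above its group and the change was not called (−0.40 ± 0.16, adjusted p = 0.165). The ratio of Hspe1 to Hspd1 in TPM was 1.54, 1.02 and 1.23 in the controls and 0.983, 0.865 and 1.49 in KO, with overlap.

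Dnaja3, a DnaJ protein of the mitochondrial matrix, stood at 83.0, 91.3 and 81.2 CPM against 67.3, 68.1 and 59.9 CPM (−0.39 ± 0.10, adjusted p = 0.058). Dnajc19, a component of the import motor at the inner membrane, was at 60.1, 49.1 and 50.2 CPM against 37.6, 31.8 and 44.99 CPM (−0.48 ± 0.15, adjusted p = 0.092), and its 704-base transcript also lies in the shortest range. Both pairs of groups were separate in CPM. In TPM those of Dnajc19 stayed apart, whereas those of Dnaja3 overlapped. Both genes overlap others (Dnaja3 lies within a region shared with Coro7 on the other strand and Vasn on the same strand, Dnajc19 shares 14303 bases with Fxr1 on the other strand). Hspa9, the mitochondrial Hsp70, was not called at 446, 574 and 455 CPM against 407, 397 and 321 CPM (adjusted p = 0.133), although no KO value reached a control value in CPM. In TPM its groups overlapped. The mitochondrial class lay below the length-range median in 8 of 8 members, with a median distance of −0.29. In the fits without 1 library, 0 mitochondrial members were called without control 1, control 2, KO 1 or KO 2. In that order 2.5%, 1.9%, 1.4% and 1.7% of all genes were called lower. It was 1 without control 3 (2.6% of all genes) and 4 without KO 3 (15.3% of all genes), each lower.

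Stress-induced cytosolic members showed no common direction. Of 7 tested, 1 was called lower (14.3%, against 6.25% of all genes) and none higher (9.19% of all genes). The point estimate was below 0 for 4 of 7, with a median of −0.04. Dnaja1, a DnaJ partner of Hsp70 that is made constitutively and rises on stress, was the one called. It stood at 244, 239 and 205 CPM in the controls and 180, 168 and 180 CPM in KO, a change of −0.38 ± 0.11 (adjusted p = 0.068) without overlap in CPM, though its groups overlapped in TPM.

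The inducible Hsp70 genes Hspa1a and Hspa1b had the largest positive estimates of the chaperones and the widest errors. Hspa1a stood at 0.757, 2.70 and 1.55 CPM in the controls and at 3.97, 7.31 and 2.17 CPM in KO. The mean was higher in KO, but KO 3 lay below control 2, and the change of 1.44 ± 0.54 was not called (adjusted p = 0.137). Hspa1b stood at 0.681, 7.08 and 2.17 CPM against 10.02, 14.4 and 4.39 CPM, again with KO 3 below control 2 (1.55 ± 0.74, adjusted p = 0.217). The coding sequences of the pair differ at 7 of 1926 aligned bases (99.6% identity) and the genes lie 9952 bases apart on chromosome 17, so how the reads were divided between them is uncertain. They are therefore also given as a sum. Relative to the constitutive Hspa8, summed TPM of the pair was 0.042%, 0.246% and 0.109% in the controls and 0.431%, 0.659% and 0.212% in KO, a difference of 1.92 on the log2 scale with an exact two-sided permutation p = 0.2. Control 2 was inside the KO range. Both genes were called higher without KO 3 (adjusted p = 0.037 and 0.080), and Hspa1b also without control 2 (adjusted p = 0.087).

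Hsp90aa1, the inducible cytosolic Hsp90, stood at 1208, 1649 and 1206 CPM in the controls and at 1172, 1121 and 914 CPM in KO. The KO values were all lower, with KO 1 close to 2 controls, and the change was not called (−0.34 ± 0.17, adjusted p = 0.225). Hsph1, an Hsp110 that exchanges the nucleotide of Hsp70, overlapped between groups at 71.6, 101 and 74.1 CPM against 72.2, 77.5 and 57.0 CPM (adjusted p = 0.365). Dnajb1, the main stress-induced Hsp40, had the smallest estimate of the 7, at 72.0, 74.7 and 76.6 CPM against 72.6, 74.5 and 69.3 CPM (−0.04 ± 0.09, adjusted p = 0.773). Dnajb4 was at 44.8, 39.2 and 38.2 CPM against 50.1, 42.2 and 35.5 CPM (0.07 ± 0.14, adjusted p = 0.79). Hspb1, the small heat shock protein most often followed as a stress marker, had at most 0.146 CPM and was not tested.

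**Figure D4:**
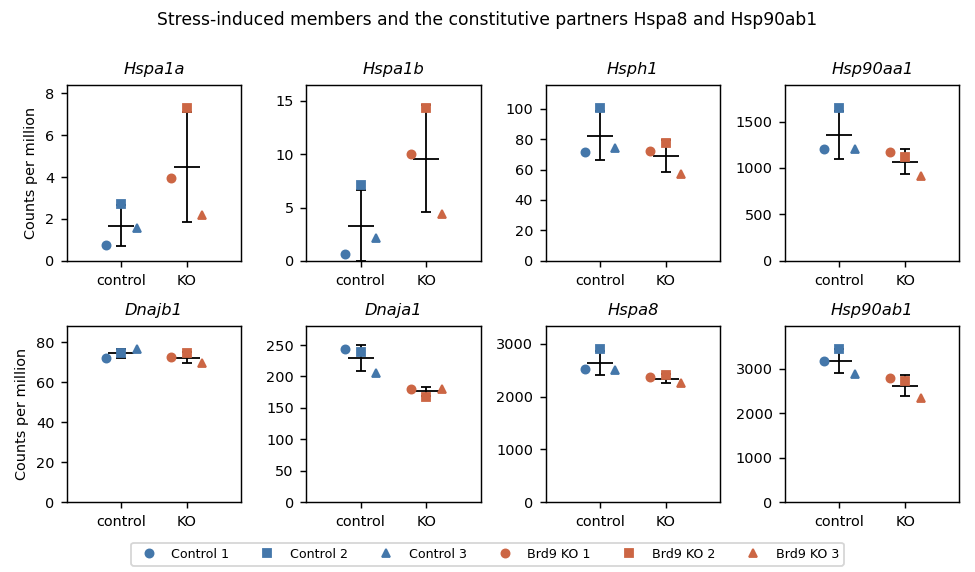
CPM (y axes, each from 0) of 6 stress-induced members and of the constitutive Hspa8 and Hsp90ab1 in the 3 control (blue) and 3 Brd9 KO (orange) libraries, with mean and SD. The Hspa1a and Hspa1b panels overlap between groups, with KO 2 highest at 7.31 and 14.4 CPM, while Dnaja1 is lower in all KO libraries.

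The constitutive cytosolic members were nearer to each other. All 8 point estimates were below 0, between −0.28 and −0.05 with a median of −0.18, and 0 were called by edgeR at the threshold, with 2 at an unadjusted p under 0.05. Hspa8 stood at 2517, 2901 and 2507 CPM against 2370, 2401 and 2253 CPM, which did not overlap (−0.17 ± 0.12, adjusted p = 0.365), but on the TPM scale with limma the sign turned to 0.04. Hsp90ab1 was at 3179, 3443 and 2890 CPM against 2785, 2725 and 2343 CPM, without overlap (−0.28 ± 0.13, adjusted p = 0.212). DESeq2 called 1 of the 8 and the length-corrected fit 4, each lower.

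Set against each other within libraries, the inducible and the constitutive Hsp90 gene did not differ in proportion beyond their spread. Hsp90aa1 amounted to 33.1%, 41.7% and 36.3% of Hsp90ab1 in TPM in the controls and to 36.6%, 35.8% and 34.0% in KO, a log2 difference of −0.06 with an exact two-sided permutation p = 0.8. The KO values all lay inside the control range. The coding sequences of this pair are 77.5% identical, much less alike than Hspa1a and Hspa1b. For the whole classes, the median deviation of the stress-induced minus that of the constitutive members was −0.14, 0.22 and −0.02 in the controls and 0.10, 0.21 and 0.05 in KO, on the log2 scale. Control 2 lay above every KO library.

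**Figure D5:**
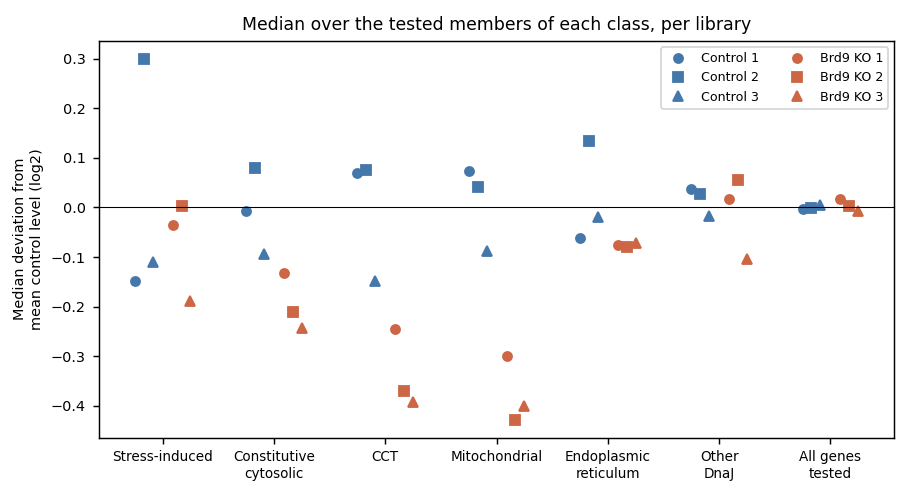
Median deviation from the mean control level (log2, y axis) over the tested members of each class, per library, with controls in blue and Brd9 KO in orange. CCT and mitochondrial medians are −0.25 to −0.43 in KO, the stress-induced medians overlap between groups with control 2 at 0.30, and the median of all genes stays near 0.

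Members of the endoplasmic reticulum divided. Of 12 tested, 1 was called lower (8.3%, against 6.25% of all genes) and none higher (9.19% of all genes). In 7 the point estimate was below 0, and the median was −0.05. Dnajc25, a membrane-bound DnaJ protein, stood at 16.4, 18.9 and 16.4 CPM in the controls and at 11.4, 10.4 and 10.1 CPM in KO, 61.6% of control. At −0.70 ± 0.13 (adjusted p = 0.023) it had the smallest adjusted p of the family, its groups were separate in both CPM and TPM, and it kept its call in 6 of 6 fits that left out a library. A readthrough gene, Gm20503, covers it on the same strand, so some of its reads may belong there. Hspa5 (BiP), the ER Hsp70 and a standard readout of the unfolded protein response, was at 978, 1124 and 794 CPM against 770, 711 and 731 CPM, lower in each KO library but not called (−0.39 ± 0.14, adjusted p = 0.13). The other 2 genes that share the ER stress element were not called either. Hsp90b1 (Grp94) was at 1035, 1253 and 1012 CPM against 1022, 971 and 1125 CPM (adjusted p = 0.707), and Dnajc3 at 155, 195 and 171 CPM against 166, 168 and 159 CPM (adjusted p = 0.67), both with overlap. With length-corrected offsets Hspa5 (−0.43, adjusted p = 0.052) and Dnajc3 (−0.29, adjusted p = 0.059) were called lower and Hsp90b1 was not (−0.14, adjusted p = 0.389), and no difference between the 3 genes was tested. Across the family, 4 of the 15 tested members with a 2-unit heat shock element were called lower and none higher, with a median of −0.25. Of the 42 without one whose promoter was given, 7 were called lower and 2 higher, with a median of −0.14 (over all genes 6.25% lower and 9.19% higher). The difference between members with and without the element was not tested.

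The remaining DnaJ proteins showed no common direction, with a median of 0.05. Of 18 tested, 1 was called higher and 1 lower (5.6% each, against 9.19% and 6.25% of all genes). Dnajb2, a co-chaperone with ubiquitin-interacting motifs that hands clients to the proteasome, was the one chaperone gene called higher. It stood at 28.3, 21.7 and 24.8 CPM against 38.3, 32.6 and 33.2 CPM, a rise to 139% of control (0.48 ± 0.13, adjusted p = 0.068), without overlap in CPM or TPM. Dnajb3 was lower at 2.61, 1.60 and 2.36 CPM against 1.10, 1.16 and 1.16 CPM (−0.94 ± 0.27, adjusted p = 0.073). It lies wholly inside the Ugt1a genes on the other strand, so that its reads are uncertain. Of the members grouped as small heat shock proteins by their Hspb symbol alone, Hspb11 (2.91 to 6.51 CPM by library) and Hspb6 were tested. Neither was called, at −0.38 ± 0.26 and −0.03 ± 0.16 (adjusted p = 0.383 and 0.917). Among the other Hsp70 genes Hspa4l (0.02 ± 0.16) and Hspa2 (−0.14 ± 0.17) were the most abundant, and 0 of 3 tested were called by edgeR (0 at an unadjusted p under 0.05).

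A further 3 symbols matched the rule by name but do not encode heat shock proteins. Hspg2 encodes perlecan, a heparan sulfate proteoglycan of basement membranes, and entered the test only through the KO libraries, in which it is high, so its call is given as a description. It went from 0.378, 0.506 and 0.368 CPM to 1.10, 1.75 and 1.06 CPM (1.65 ± 0.34, adjusted p = 0.029). Of the stromal markers 9 of 11 and of the endothelial markers 5 of 8 were called higher. Several of these, like Hspg2, met the filter only through the KO libraries. Emcn and Egfl7 had estimates below 0, and most of the endothelial sum was Pecam1 (119 CPM in the controls and 173 CPM in KO on average). The part of these markers in the Hspg2 result was not tested. Hspbp1, a nucleotide exchange factor of Hsp70, was called lower, from 83.9, 68.4 and 62.3 CPM to 55.7, 42.3 and 56.3 CPM (−0.48 ± 0.16, adjusted p = 0.0998). Hspbap1 was not called. Without these 3 symbols 10 of 66 tested members were called lower and 1 higher (15.2% and 1.5%, against 6.25% and 9.19% of all genes).

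Other genes of protein folding, from a list of 50 co-chaperones, heat shock factors, prefoldins and ER or mitochondrial helpers, gave 7 called lower (6.25% of all genes) and 1 higher (9.19% of all genes). Of the 50, 40 had a point estimate below 0 (48.2% of all genes), and the median was −0.25. Cacybp, the calcyclin-binding protein, was at 206, 227 and 186 CPM against 162, 141 and 151 CPM (−0.45 ± 0.11, adjusted p = 0.052). Bag2 and Bag1, nucleotide exchange factors of Hsp70, fell, with changes of −0.55 and −0.39 (adjusted p = 0.066 and 0.068). Serpinh1, a collagen chaperone of the ER, was the one called higher, from 1.82, 1.22 and 1.88 CPM to 3.31, 3.27 and 3.38 CPM (1.01 ± 0.24, adjusted p = 0.043). Of the stromal markers 9 of 11 were called higher, several of which met the filter only through the KO libraries. The collagen genes Col1a1 and Col1a2 were not called (adjusted p = 0.258 and 0.506, with overlap). The part of the stromal markers in the Serpinh1 result was not tested. The count of 8 called fell to 0 without control 2, KO 1 or KO 2, where 5.5%, 4.9% and 6.1% of all genes were called in either direction. It was 1 without control 1 (7.7% of all genes), 3 without control 3 (7.0%) and 19 without KO 3 (31.6%).

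Immediate early genes, which respond within minutes to signals and to tissue handling, were set beside the stress-induced chaperones. Of 18 tested, 7 were called lower (6.25% of all genes) and 1 higher (9.19% of all genes) in KO, with a median of −0.68. The median deviation of the list from the mean control level differed within KO. It was 0.11, −0.27 and 0.04 in the controls and −0.84, −1.07 and −0.09 in KO 1, KO 2 and KO 3 (log2). KO 3 thus lay above control 2. Jun stood at 328, 296 and 318 CPM against 124, 106 and 137 CPM (−1.36 ± 0.12, adjusted p = 0.0019). Fosb was at 52.1, 56.3 and 56.1 CPM against 9.41, 8.88 and 16.8 CPM (−2.24 ± 0.24, adjusted p = 0.0034). Fos and Egr1 fell, with changes of −1.92 ± 0.27 and −1.64 ± 0.22 (adjusted p = 0.0079 and 0.0071). The groups of Jun and Fosb were far apart, whereas those of Hspa1a and Hspa1b overlapped and had the opposite sign of estimate. Between 4 and 15 immediate early genes were called when 1 library was left out, 4 without KO 1 (4.9% of all genes called in either direction) and 15 without KO 3 (31.6% of all genes).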

How the data were processed

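Poly(A) RNA of 6 libraries (3 control, 3 Brd9 KO) was sequenced by the authors, mapped to mm10 with the nf-core/rnaseq pipeline and summarised per gene with RSEM. The authors deposited an expected count and a TPM (an abundance per length of transcript) for each of 24411 genes. The expected counts as deposited were rounded to whole numbers (2 members had a non-whole value in some library), filtered with filterByExpr and scaled by TMM. They were tested with edgeR 4.0.16 (R 4.3.3, quasi-likelihood test, Benjamini-Hochberg over 12953 genes, called at an adjusted p under 0.1). The study used the same adjusted p threshold, but with DESeq2 and independent hypothesis weighting, and added a fold-change cut for its counts of genes. TPM, which is scaled within each library and so shifts when abundant short transcripts change, was used for levels between genes and ratios within a library. Deviations per library are log2(CPM + 0.5) minus the control mean. The common biological coefficient of variation was 0.175. The fits were tested on simulated data. Alternatives were other scalings, no filter, DESeq2 1.42.0, limma 3.58.1 on log2(TPM + 1) and log2(TPM + 0.1), a replicate block, a stricter threshold, length-corrected offsets and leaving out each library. Depth (21151031 to 28500168) limits precision for members under about 1 CPM.

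The members, the classes and the lists were chosen with earlier results of these data known, and the classes follow textbook knowledge. The genes named were all called members, all stress-induced members and CCT subunits, Hspa8 and Hsp90ab1, the 2 most abundant members of classes without a call, and up to 4 called genes of each other list. Hspd1, Hspa9, Hspa5, Hsp90b1, Dnajc3 and the untested members were named after their values were seen. Positions follow GENCODE vM21 (GRCm38), the build of the files. Replicate numbers did not pair the libraries: deviations of same-numbered libraries correlated at −0.10, 0.61 and 0.01.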

Additional observations from a re-analysis of the deposited data

How the results depend on the processing

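Of the 13 called members, Dnajc25 kept its call in 6 of 6 fits without 1 library, Hspg2 in 4 and each of the others in 1 or 2. Hspa1a, Hspa1b and Hspg2 had few counts, and Hspa1b ran from 0.681 to 7.08 CPM within the controls. The causes of the differences between settings given here were not tested. Of the main counts, 11 members were lower and 2 higher, and 1 stress-induced, 0 constitutive, 4 CCT, 8 folding partner and 8 immediate early genes were called. Median-of-ratios size factors left each of these counts within 1.5 times.

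Library total alone called 4 members lower, 0 stress-induced members, 0 CCT subunits and 4 folding partners. Without a filter 2 CCT subunits were called. DESeq2 called 22 members lower, 2 stress-induced members (1 higher and 1 lower), 1 constitutive member and 7 CCT subunits. Limma on log2(TPM + 1) called 2 members lower and 1 higher, and on log2(TPM + 0.1) 1 lower and 1 higher, and each left 0 stress-induced members, 0 CCT subunits and 1 folding partner. At an adjusted p under 0.05, 1 member was lower and 1 higher, with 0 stress-induced members, 0 CCT subunits and 1 folding partner. Length-corrected offsets called 28 members lower, 3 stress-induced members, 4 constitutive members, 7 CCT subunits and 20 folding partners. The share of members called lower was 5.8% with library total alone (3.78% of all genes), 31.9% with DESeq2 (9.73%) and 40.6% with length-corrected offsets (16.1%). It was 2.9% and 1.4% with the 2 limma fits in that order (1.73% and 1.66% of all genes). At an adjusted p under 0.05 it was 1.4%, against 2.65% of all genes. On log2(TPM + 0.1) and at the stricter threshold the members' share was thus below that of all genes.

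With the replicate number as a replicate block, 8 members were called lower and 4 higher (6.11% and 9.92% of all genes), the latter with Hspa1a and Hspa1b. Of the classes, 3 stress-induced members and 1 CCT subunit were called. Same-numbered libraries did not deviate together in every pair, and not every library correlated best with its own number, so the block is a sensitivity value and not a paired result. The within-library ratios were unchanged by the block at −0.06 (Hsp90aa1 to Hsp90ab1) and 1.92 (Hspa1a plus Hspa1b to Hspa8).

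Leaving out 1 library gave 1 to 14 members lower and 0 to 6 higher, 0 to 3 stress-induced members, 0 to 0 constitutive members, 0 to 4 CCT subunits, 0 to 19 folding partners and 4 to 15 immediate early genes. The ratio of Hsp90aa1 to Hsp90ab1 ran from −0.13 to 0.032 and turned positive without control 2.

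Several members that were not called changed sign. With library total alone, Dnajb1 was at 0.043, Dnajc3 at 0.0052, Hsp90b1 at 0.00049 and Hspb6 at 0.054. With limma on log2(TPM + 1) and log2(TPM + 0.1), in that order, Dnajb1 was at 0.17 and 0.17, Dnajc3 at 0.14 and 0.14, Hsp90b1 at 0.14 and 0.14, Hspa2 at 0.083 and 0.093, Hspa8 at 0.045 and 0.045, and Hspb6 at 0.17 and 0.19. With length-corrected offsets Hspa4l was at −0.10 and Hspb6 at 0.076. Without 1 library, Dnajb4 ran from −0.062 to 0.18 (negative without KO 1), Dnajc3 from −0.16 to 0.0078, Hsp90b1 from −0.14 to 0.019 and Hspa2 from −0.27 to 0.020 (each positive without control 2), Hspa4l from −0.15 to 0.15 and Hspb6 from −0.076 to 0.033.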
